A study of Drosophila melanogaster with 18 samples.

Results

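The Act57B and BTub60D constructs were the muscle control enhancers that were spiked into a QeFS library of Drosophila melanogaster reporters. Their members were chosen by name, as all tags whose construct begins with Act57B_ or BTub60D_, and they comprised 20 of the 312 tags and 5 of the 93 constructs in the files. The 5 constructs were the Act57B enhancer with a mutated Mef2 site (Act57B_Mef2_Mut), the wildtype Act57B enhancer (Act57B_Mef2_WT), the BTub60D enhancer with a mutated bap site (BTub60D_bap_Mut), the BTub60D enhancer with both bin sites and the bap site mutated (BTub60D_binI_binII_bap_Mut, here the triple mutant), and the wildtype BTub60D enhancer (BTub60D_WT). In QeFS, each enhancer drives a GFP reporter from the attP40 landing site on the second chromosome, a short degenerate tag in the reporter transcript identifies the construct, and tags are counted in the RNA and in the genomic DNA of sorted cells. Males of the reporter pool, each carrying 1 construct, were crossed to virgin females that carried the cell surface marker CD2 under the twi promoter (twi:CD2) or under the IE-D5 enhancer of Mef2 (mef2[IE-D5]:CD2). Embryos were laid over 2.25 hours and aged for 11 hours at 18 °C, and their cells were sorted on CD2. The 3 collections of twi:CD2+ cells, hereafter replicates 1 to 3, hold sorted mesoderm. The 6 collections of mef2:CD2- cells, replicates 1 to 3 of week 1 and 4 to 6 of week 2, hold embryonic cells depleted of fusion-competent myoblasts. Each collection gave 1 RNA and 1 DNA library. The labels do not say whether the collections of a population came from separate crosses. The p-values of tests over collections thus measure the spread between these collections, and those over tag means the spread between tags. In tests over observations, both kinds of spread are pooled. Any of this spread may be technical. The files hold no marker genes by which the sorted cells could be checked.

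Both enhancers belong to genes of the muscle lineages. Act57B encodes a muscle actin, and Mef2 is the MADS-box factor that activates many genes of muscle differentiation. BTub60D stands for β3-tubulin, a tubulin of the differentiating mesoderm. Bagpipe (bap) is an NK homeodomain factor required for the visceral mesoderm, and biniou (bin) is the FoxF forkhead factor that acts downstream of it in the same tissue. In the 262 bases of the BTub60D enhancer, counted from its first base, the bap site mutant differed from wildtype by 5 substitutions between positions 154 and 159. The triple mutant carried 16 substitutions, of which 11 lay in 2 further stretches at positions 24 to 28 and 133 to 138. The change in the Act57B enhancer was not analysed here at the level of bases.

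Every construct was represented by 4 tags, numbered here in alphabetical order. Tags were synthesised with random bases and do not come from the fly genome, and only tags were counted, so a construct's activity is that of its tags. The 12 tags shown are the 8 of the Act57B pair and 4 of the BTub60D tags described below, written 5′ to 3′.
Act57B_Mef2_Mut tag 1: gtgaacttgccagcggtcga
Act57B_Mef2_Mut tag 2: gtgatgatcttcaaagcaaa
Act57B_Mef2_Mut tag 3: gtgtgtctaaaatggtgatt
Act57B_Mef2_Mut tag 4: tctaactaagaagataagcg
Act57B_Mef2_WT tag 1: acacggaggcactcggacag
Act57B_Mef2_WT tag 2: ccattcgcctctcatacgg
Act57B_Mef2_WT tag 3: cgaactaataggccacagtg
Act57B_Mef2_WT tag 4: tcccgatatgatgcaaggca
BTub60D_bap_Mut tag 2: cattgaagtcggtgaaaac
BTub60D_bap_Mut tag 4: gaatgctctgtgcacatcg
BTub60D_binI_binII_bap_Mut tag 3: ggcatatgctctcaccgttc
BTub60D_binI_binII_bap_Mut tag 4: taatcatggttgtagcgtta
Of the 20 tags, 17 had 20 bases and 3 had 19. No control tag came closer than 7 edits (substitutions, insertions or deletions) to any other tag of the library, while the alignment allowed 2 mismatches.

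Enhancer activity was the share of RNA UMIs on a tag divided by its share of DNA UMIs in the same collection, so that a value of 1 means equal shares of both. It is thus relative to the other constructs in the same libraries. A tag in a collection was an observation if it had at least 65 DNA UMIs and was present in the RNA library. The RNA libraries held 813922 to 1366066 UMIs in twi:CD2+ cells, against 560294 to 1201998 in mef2:CD2- cells. The DNA libraries held 317396 to 621449 UMIs in twi:CD2+ cells, against 54038 to 248151 in mef2:CD2- cells. The 5 constructs took 8.33 to 12.7% of RNA UMIs and 6.38 to 7.25% of DNA UMIs in twi:CD2+ cells. Their share in week 1 of mef2:CD2- cells was 14.3 to 14.9% of RNA UMIs and 6.29 to 8.63% of DNA UMIs. In week 2 it was 7.48 to 7.93% of RNA UMIs and 5.36 to 8.11% of DNA UMIs. The exact 95% binomial interval of such a share reached at most 0.24 percentage points to either side, and these intervals cover counting error only. Of the 180 possible observations of the 20 tags over 9 collections, 146 passed, of which 52 of 60 came from twi:CD2+ cells and 94 of 120 came from mef2:CD2- cells. Of the 34 others, 30 fell under the DNA minimum, 3 belonged to a tag that was not in the twi:CD2+ files at all (BTub60D_bap_Mut tag 4), and 1 had DNA but no RNA.

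In twi:CD2+ cells, the Act57B enhancer with the mutated Mef2 site was less active than the wildtype enhancer on every tag and in every collection. Mean activity over tags was 1.26, 1.71 and 0.685 in replicates 1, 2 and 3 for the mutant, against 7.09, 4.14 and 7.16 for wildtype. The 2 groups of collections did not overlap, and neither did the observations, since the highest of 11 mutant observations was 2.28 and the lowest of 10 wildtype observations was 3.89. Such separation was not limited to the controls. In CBP2862-DS7, a mutant of another library enhancer, all 9 observations (highest 0.241) lay below all 4 of its wildtype (lowest 0.575). How many mutants of all enhancers were so separated was not counted. Over observations, the activity was 1.27 ± 0.527 (SD, n = 11) for the Mef2 site mutant and 6.23 ± 2.58 (SD, n = 10) for wildtype, a ratio of 0.203 (exact p = 5.67e-06, adjusted p = 0.000932, two-sided permutation test of mean ranks, Benjamini-Hochberg over 241 pairs of constructs). The ratio was 0.177, 0.414 and 0.0957 in replicates 1, 2 and 3, with replicate 2 nearest to 1. A pair was called where the Kruskal-Wallis p of its enhancer and the adjusted p of the pair were both under 0.1. Lower activity than wildtype was called for 17.9% of the 67 mutants of all enhancers in twi:CD2+ cells and higher activity for 4.48%. The fold change of the Mef2 site mutant was the 6th lowest of the 67, whose median was 0.679. Tags of 1 construct recur in every collection and are not independent samples. With the 4 tag means on each side as units, the exact p was 0.0286, the smallest that 4 against 4 can give (adjusted p = 0.438). With the 3 collections as units, an exact sign-flip test cannot go below p = 0.25 (adjusted p = 0.543).

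For Act57B in twi:CD2+ cells, tags of 1 construct differed less than mutant and wildtype did. Tags 1, 2 and 3 of the Mef2 site mutant had mean activities of 1.34 ± 0.610, 1.25 ± 0.468 and 0.885 ± 0.234 (SD, n = 3 collections each), and tag 4 had 1.22 and 2.28 in replicates 1 and 2. The wildtype tags 2, 3 and 4 had mean activities of 4.97 ± 1.15, 5.40 ± 1.86 and 8.55 ± 3.67 (SD, n = 3 each), and tag 1 had 5.51 in replicate 1. The highest tag mean was 1.98 times the lowest in the mutant and 1.72 times the lowest in wildtype, both less than the distance between the constructs. In replicate 3, all 3 mutant tags that passed lay between 0.642 and 0.755, below every mutant observation of the other collections.

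The Mef2 site mutant was also less active than wildtype in mef2:CD2- cells, where tags and collections spread more. The collection means of the mutant had a lowest value of 0.397, a median of 1.62 and a highest value of 2.71, against 2.66, 5.64 and 7.54 for wildtype. The highest mutant collection was thus slightly above the lowest wildtype collection, and both were replicate 6. Over observations, the activity was 1.60 ± 1.80 (SD, n = 20) for the mutant and 5.11 ± 2.45 (SD, n = 20) for wildtype, a ratio of 0.314 (adjusted p = 6.89e-06, permutation test of mean ranks, 273 pairs). The ratio was 0.269, 0.217 and 0.563 in replicates 1 to 3 of week 1 and 0.0901, 0.194 and 1.02 in replicates 4 to 6 of week 2. Activity of the mutant was the lower one in 5 of 6 collections (exact sign-flip p = 0.0625, where 0.03125 is the smallest possible). Lower activity than wildtype was called for 37.5% of the 72 mutants tested in mef2:CD2- cells, and higher activity for 9.72%. The fold change of the Mef2 site mutant was the 9th lowest of the 72, whose median was 0.803. With geometric means of tags as units, the ratio was 0.144 (exact p = 0.0286, 4 against 4 tags). Mutant tag 4 entered this ratio with 2 observations, including the value of 0.00712 on 3 RNA UMIs.

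Single tags stood apart in replicate 6. Tag 2 of the mutant had an activity of 8.68 there, on 78 DNA UMIs and 3278 RNA UMIs (95% counting interval 6.93 to 11.0), against 0.460 to 2.11 in the other 5 collections. In the same collection, mutant tag 4 had 3 RNA UMIs on 87 DNA UMIs, an activity of 0.00712 (95% counting interval 0.00144 to 0.0215), while tags 1 and 3 had 1.45 and 0.693. Both the highest and the lowest of the mutant's observations were thus from replicate 6. Wildtype tag 1 passed in replicates 4 and 6, with 5.57 and 0.792, and its 109 DNA UMIs in replicate 6 came from 148 reads. This was 1.36 reads per DNA UMI, against a median of 80.2 over the 146 observations of the controls, and it was the only one under 5. Apart from that observation, the lowest wildtype value was 2.59, and 18 of the 20 mutant observations lay below it. Without replicate 6 the ratio in mef2:CD2- cells was 0.232 (adjusted p = 5.03e-07), and without the observation of few reads per UMI, a choice made after seeing the data, it was 0.300 (adjusted p = 7.19e-07). The part that low DNA counts had in these values was not tested.

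In week 1, activity was 1.69 ± 0.479 for the Mef2 site mutant, against 5.70 ± 2.29 for wildtype (SD, n = 9 observations each). In week 2, it was 1.53 ± 2.44 for the mutant, against 4.62 ± 2.58 for wildtype (SD, n = 11 each). The difference was called within each week (ratio 0.297, adjusted p = 0.00153 in week 1 and ratio 0.330, adjusted p = 0.00950 in week 2, permutation tests of mean ranks). These p-values count the tags of 3 collections per week as separate observations. The collections alone, of which replicate 6 in week 2 had a ratio of 1.02, cannot give an exact sign-flip p below 0.25 within a week. Among wildtype tags, tags 2, 3 and 4 had similar mean activities of 5.63 ± 3.03, 5.48 ± 2.17 and 4.86 ± 2.14 (SD, n = 6 collections each). Mutant tags 1, 2 and 3 had 1.57 ± 0.736, 2.69 ± 2.99 and 1.03 ± 0.449 (SD, n = 6 each). Mutant tag 4 had 0.273 and 0.00712 in the 2 collections in which it passed, both of week 2. In twi:CD2+ cells, the same tag had the highest mean of the 4, 1.75 over 2 observations.

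The wildtype BTub60D enhancer was much less active than the wildtype Act57B enhancer. Its collection means were 0.688, 1.11 and 0.326 in replicates 1, 2 and 3 of twi:CD2+ cells. Those of mef2:CD2- cells had a lowest value of 0.450, a median of 0.676 and a highest value of 0.981. The mean over observations was 0.706 ± 0.488 (SD, n = 12) in twi:CD2+ cells, against 0.697 ± 0.398 (SD, n = 21) in mef2:CD2- cells. Tag 3 was the most active in mef2:CD2- cells, at 1.11 ± 0.450 (SD, n = 6), whereas tags 1 and 4 had 0.650 ± 0.268 and 0.484 ± 0.159 (SD, n = 6 each) and tag 2 had 0.387 ± 0.173 (SD, n = 3). In twi:CD2+ cells, tag 1 was lowest at 0.292 ± 0.127, and tags 2, 3 and 4 had 0.873 ± 0.596, 0.788 ± 0.500 and 0.873 ± 0.582 (SD, n = 3 each). The order of the wildtype tags was therefore not the same in the populations.

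For the bap site mutant of BTub60D, no difference from wildtype passed the test in twi:CD2+ cells. Its collection means were 0.898, 1.35 and 0.766 in replicates 1, 2 and 3, each above that of wildtype in the same collection, by ratios of 1.30, 1.22 and 2.35. Over observations, it had 1.00 ± 0.880 (SD, n = 9) against 0.706 ± 0.488 (SD, n = 12) for wildtype, a ratio of 1.42 (adjusted p = 0.915, permutation test of mean ranks). The observations overlapped widely: 1 of the 9 mutant observations lay below all of wildtype and 3 lay above all of wildtype. The ratio of geometric means over tags was 0.959, on the other side of 1. Tag 2 had 1.78, 0.600 and 1.97 in replicates 1, 2 and 3, measured on at least 1946 DNA UMIs. Tag 1 had 0.251, 2.54 and 0.0120 in replicates 1, 2 and 3, of which 0.0120 came from 13 RNA UMIs on 628 DNA UMIs. Tag 3 had 0.663, 0.901 and 0.319, and tag 4 was absent from both library types of twi:CD2+ cells.

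The bap site mutant had lower values than wildtype in 5 of 6 collections of mef2:CD2- cells, but the difference did not pass the test over all pairs. Its collection means had a lowest value of 0.0866, a median of 0.506 and a highest value of 0.939, against 0.450, 0.676 and 0.981 for wildtype. Over observations it had 0.501 ± 0.340 (SD, n = 18) against 0.697 ± 0.398 (SD, n = 21) for wildtype, a ratio of 0.719 (exact p = 0.0883, adjusted p = 0.180, permutation test of mean ranks). The ratio was 1.49, 0.646 and 0.555 in replicates 1, 2 and 3 and 0.193, 0.683 and 0.768 in replicates 4, 5 and 6 (exact sign-flip p = 0.125). With observations centred on their collection, which blocks by replicate, the adjusted p was 0.0753 at a ratio of geometric means of 0.631. It was also under the threshold of 0.1 when adjusted within the BTub60D constructs (0.0883), without replicate 1 (0.0445, ratio 0.580), the collection in which the mutant was higher, and without tag 3 of the mutant (0.0747, ratio 0.670). Replicate 4 held the lowest values of the mutant, with 0.0400, 0.136 and 0.0841 on tags 2, 3 and 4, while the 3 wildtype tags that passed lay between 0.414 and 0.514 there. Within weeks, the ratio was 0.836 in week 1 (adjusted p = 0.916) and 0.597 in week 2 (adjusted p = 0.158). With tag means as units, it was 0.804 (exact p = 0.571, 4 against 4 tags).

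The triple mutant was the least active of the 5 controls in each of the 9 collections. In twi:CD2+ cells, its collection means were 0.0955, 0.0813 and 0.0118 in replicates 1, 2 and 3, against 0.688, 1.11 and 0.326 for wildtype. All 10 observations of the triple mutant that passed (highest 0.166) lay below all 12 of wildtype (lowest 0.205). Its tags 1 and 2 in replicate 3 fell under the DNA minimum, with 2.66 and 1.79, above every wildtype value. The triple mutant had 0.0731 ± 0.0671 (SD, n = 10) against 0.706 ± 0.488 (SD, n = 12) for wildtype, a ratio of 0.103 (adjusted p = 0.000932, permutation test of mean ranks). As a ratio of geometric means, with observations centred on their collection, which blocks by replicate, it was 0.0534. The ratio of means was 0.324 with a minimum of 20 DNA UMIs, and the difference was called with both. The test counts the tags of 3 collections as separate observations. The difference was not called with tag means as units (ratio 0.0675, exact p = 0.0286, adjusted p = 0.438) or with collections as units (ratio 0.0718, exact p = 0.25, adjusted p = 0.543). Both exact p-values were the smallest that these numbers of tags and collections allow. By collection, the ratio was 0.139, 0.0736 and 0.0363 in replicates 1, 2 and 3. Only 1 of the 67 mutants in twi:CD2+ cells had a lower ratio to its wildtype. Against the bap site mutant, with 1.00 ± 0.880 (SD, n = 9), the ratio was 0.0729 (adjusted p = 0.00268). For the 174 pairs of 2 mutants of the same enhancer, a difference in either direction was called in 23.6%.

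Collection means of the triple mutant in mef2:CD2- cells had a lowest value of 0.0414, a median of 0.0565 and a highest value of 0.0798. It had 0.0630 ± 0.0328 (SD, n = 15) against 0.697 ± 0.398 (SD, n = 21) for wildtype, a ratio of 0.0905 (adjusted p = 1.20e-08, permutation test of mean ranks). All 15 observations, of which the highest was 0.127, lay below the lowest wildtype observation of 0.255. How many other mutants were so separated in these cells was not counted. The ratio of the triple mutant to wildtype lay between 0.0423 and 0.127 and was below 1 in 6 of 6 collections (exact sign-flip p = 0.03125, the smallest possible, adjusted p = 0.0908). With tag means as units, it was 0.0960 (exact p = 0.0286, adjusted p = 0.440). Against the bap site mutant, with 0.501 ± 0.340 (SD, n = 18), the ratio was 0.126 (adjusted p = 3.95e-05), where 37.3% of the 201 pairs of 2 mutants were called. By collection, the ratio to the bap site mutant was 0.0761 to 0.167 in 5 collections and 0.654 in replicate 4, the collection in which the bap site mutant was lowest.

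The triple mutant was measured from few RNA molecules, with a median of 88 RNA UMIs over its 25 observations. Tag 3, with 612 to 2398 DNA UMIs in every collection, had 0.0552, 0.0853 and 0.0203 in replicates 1, 2 and 3 of twi:CD2+ cells. The same tag had a lowest value of 0.0404, a median of 0.0529 and a highest value of 0.0941 over the collections of mef2:CD2- cells. Tag 4 had 0.160 in replicate 1 of twi:CD2+ cells and then 1 RNA UMI each in replicates 2 and 3, on 148 and 173 DNA UMIs, activities of 0.00174 and 0.00335. The 95% counting intervals of these values reached up to 0.00983 and 0.0189. Tag 2 had 79 DNA UMIs and no RNA in replicate 5 of mef2:CD2- cells, where 3 RNA UMIs, the limit that a count of 0 allows, correspond to an activity of 0.00548. With such tags counted at 0, the ratio to wildtype in mef2:CD2- cells was 0.0848.

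Among all constructs with at least 4 observations, the wildtype Act57B enhancer ranked 2nd of 86 in twi:CD2+ cells, against 3rd of 91 in mef2:CD2- cells. The constructs above it were versions of ChIPCRM5432, another enhancer of the library. ChIPCRM5432-WT had 7.90 ± 8.11 (SD, n = 7) in twi:CD2+ cells, and its spread included the Act57B value. In mef2:CD2- cells, ChIPCRM5432-7 had 6.39 ± 5.25 (SD, n = 12) and ChIPCRM5432-WT had 6.11 ± 3.30 (SD, n = 14), and both spreads included the Act57B value. By collection, wildtype Act57B ranked 1st to 4th in twi:CD2+ cells, against 1st to 7th in mef2:CD2- cells. The Mef2 site mutant ranked 28th of 86 in twi:CD2+ cells (15th to 41st by collection), against 13th of 91 in mef2:CD2- cells (6th to 56th by collection). Its mean thus lay above the median construct, which had 0.556 in twi:CD2+ cells, against 0.745 in mef2:CD2- cells.

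The BTub60D constructs filled the middle and the low end of the same order. Wildtype BTub60D ranked 41st of 86 in twi:CD2+ cells, against 47th of 91 in mef2:CD2- cells, close to the median construct. Its neighbours in twi:CD2+ cells were CG7759_33-7, with 0.766 ± 0.388 (SD, n = 6), and ChIPCRM2613-D1, with 0.696 ± 0.139 (SD, n = 6), neither of which differed from it by more than their spread. The bap site mutant ranked 32nd of 86 in twi:CD2+ cells, against 51st of 91 in mef2:CD2- cells. The triple mutant ranked 73rd of 86 in twi:CD2+ cells, against 82nd of 91 in mef2:CD2- cells. In replicate 3 of twi:CD2+ cells it was the lowest of all 91 constructs measured, at 0.0118 over 2 tags. Of these, tag 4 had 1 RNA UMI. Tags 1 and 2 fell under the DNA minimum in that collection, with activities of 2.66 and 1.79. The neighbours of the triple mutant, CBP2862-DS7 with 0.110 ± 0.0701 (SD, n = 9) and ChIPCRM2847-D1 with 0.0643 ± 0.0555 (SD, n = 6) in twi:CD2+ cells, lay within 1 SD of it. The lowest construct of all had 0.0181 in twi:CD2+ cells, against 0.0150 in mef2:CD2- cells.

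Wildtype Act57B was the highest of the 5 controls in 8 of 9 collections, the exception being replicate 6 of mef2:CD2- cells. Relative to wildtype BTub60D, it was 10.3, 3.74 and 22.0 times as active in replicates 1, 2 and 3 of twi:CD2+ cells and 2.98 to 14.6 times as active in mef2:CD2- cells. The Act57B enhancer with the mutated Mef2 site was still more active than the wildtype BTub60D enhancer in 8 of 9 collections, replicate 4 of mef2:CD2- cells being the exception.

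The activity of each control was then compared between the cell populations, with UMI counts summed over the tags of a construct. None of the 5 passed the threshold of 0.05 on the adjusted p in edgeR's quasi-likelihood test, in which 1.11% of 90 constructs were called higher and 2.22% lower in twi:CD2+ than in mef2:CD2- cells. The log2 fold change, twi:CD2+ over mef2:CD2-, was -0.14 ± 0.34 (SE, adjusted p = 0.899) for the Mef2 site mutant and 0.17 ± 0.33 (adjusted p = 0.856) for wildtype Act57B. It was 1.06 ± 0.42 (unadjusted p = 0.0195, adjusted p = 0.124) for the bap site mutant, 0.38 ± 0.35 (adjusted p = 0.638) for the triple mutant and -0.56 ± 0.35 (adjusted p = 0.384) for wildtype BTub60D. Collections of the populations were made separately, so that population and collection cannot be told apart. Counts were also scaled within libraries, so a change of activity shared by most constructs would not appear here. The paper chose the library enhancers for activity in embryonic mesoderm. Similar values in the populations thus do not mean equal activity per cell. Before adjustment, 20 of the 90 constructs had p under 0.05, and the bap site mutant was the only control among them. By tag, tag 2 averaged 1.45 ± 0.740 (SD, n = 3) in twi:CD2+ cells, against 0.435 ± 0.407 (SD, n = 6) in mef2:CD2- cells. Tags 1 and 3 had 0.934 ± 1.40 and 0.628 ± 0.293 (SD, n = 3 each) in twi:CD2+ cells, against 1.13 in 1 observation and 0.569 ± 0.274 (SD, n = 6) in mef2:CD2- cells. Tag 4 was absent from twi:CD2+ cells and had 0.373 ± 0.245 (SD, n = 5) in mef2:CD2- cells, so the summed counts cover unlike sets of tags. The mef2:CD2- collections of a single week gave other values. Against week 2 only, the bap site mutant had 1.71 (adjusted p = 0.00108) and wildtype BTub60D -0.25 (adjusted p = 0.761), and against week 1 only, the bap site mutant had 0.34 (adjusted p = 0.593) and wildtype BTub60D -0.97 (adjusted p = 0.00793). Without replicate 1 of mef2:CD2- cells, the bap site mutant had 1.34 (adjusted p = 0.0418).

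The effects of the mutations were also compared between populations, as log2 ratios per collection, 3 of twi:CD2+ against 6 of mef2:CD2- cells. For the Mef2 site mutant over wildtype, the mean log2 ratio was -2.38 ± 1.06 in twi:CD2+ cells, against -1.79 ± 1.23 in mef2:CD2- cells (SD, n = 3 and 6), a difference of -0.59 (exact permutation p = 0.500). For the bap site mutant over wildtype, it was 0.63 ± 0.52 in twi:CD2+ cells, against -0.70 ± 0.96 in mef2:CD2- cells, a difference of 1.34 (exact permutation p = 0.0833, adjusted p = 0.798). For the triple mutant over wildtype, it was -3.80 ± 0.97 in twi:CD2+ cells, against -3.49 ± 0.65 in mef2:CD2- cells, a difference of -0.31 (exact permutation p = 0.607). Over the bap site mutant, it was -4.43 ± 1.43 in twi:CD2+ cells, against -2.79 ± 1.18 in mef2:CD2- cells, a difference of -1.64 (exact permutation p = 0.0952, adjusted p = 0.798). The smallest p that 3 against 6 collections allow is 0.0119. An effect at this p had an adjusted p of 0.399 in the same permutation test over the 67 effects, so the test could hardly call a single effect. None of the control effects passed, and across the 67 effects compared, 0% passed after adjustment and 4.48% before it.

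The controls varied between tags and collections to different degrees. On the log2 scale, the SD of 1 tag over the collections was 0.62 for the Mef2 site mutant and 0.53 for wildtype Act57B in twi:CD2+ cells, below the median of 0.71 over 86 constructs. It was 2.35 for the bap site mutant, 2.29 for the triple mutant and 1.10 for wildtype BTub60D in the same cells. For mef2:CD2- cells, where the median over 85 constructs was 0.70, it was 1.36 for the Mef2 site mutant, 0.82 for wildtype Act57B, 1.35 for the bap site mutant, 0.72 for the triple mutant and 0.56 for wildtype BTub60D. Differences between tags of 1 construct, as the SD of the log2 tag means, were largest for the Mef2 site mutant in mef2:CD2- cells. This SD was 2.49, against a median of 0.40 over constructs. Tag 4 was far below the others on its 2 observations, of which 0.00712 came from 3 RNA UMIs. Its values under the DNA minimum, on 26 to 55 DNA UMIs, were not all low. It had 1.72, 1.27 and 1.03 in replicates 1, 2 and 5, within the range of tags 1 to 3 there. In replicate 3 it had 0.2003, below that range.

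The wildtype Act57B tags took a large part of the 65536 possible UMIs of 8 bases. Its tag 3 reached 36065 RNA UMIs in replicate 2 of twi:CD2+ cells, 55.0% of the possible UMIs, and if UMIs attach at random this would stand for 1.45 times as many molecules. Its fullest tag in mef2:CD2- cells reached 39.9% of them, a factor of 1.28. The other controls reached at most 22.8% (bap site mutant tag 2), a factor of 1.13. With all counts corrected in this way, the ratio of the Mef2 site mutant to wildtype Act57B was 0.173 in twi:CD2+ cells, against 0.274 in mef2:CD2- cells.

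Several observations under the DNA minimum had many RNA UMIs on few DNA UMIs, and 25 of the 34 that were left out had more than 3 RNA UMIs. Wildtype Act57B tag 1 had 2 and 1 DNA UMIs in replicates 2 and 3 of twi:CD2+ cells, beside 2735 and 495 RNA UMIs, and would have had activities of 352 and 287. The same tag was left out of 4 of 6 collections of mef2:CD2- cells, with 2 to 20 DNA UMIs and activities of 1.46 to 64.0. The same pattern was seen in the triple mutant, whose tags 1 and 2 had 78 and 133 RNA UMIs on 17 and 43 DNA UMIs in replicate 3 of twi:CD2+ cells, activities of 2.66 and 1.79. These exceeded every value of the triple mutant that passed, and also the highest of wildtype BTub60D in twi:CD2+ cells, 1.55. The separation of the triple mutant from wildtype in these cells thus holds only for observations that passed the DNA minimum. The Mef2 site mutant tag 4 had 143 RNA UMIs on 4 DNA UMIs in replicate 3 of twi:CD2+ cells, an activity of 20.7. With a minimum of 200 DNA UMIs, the ratio of the triple mutant to wildtype in twi:CD2+ cells was 0.141. The ratio of the triple mutant to the bap site mutant was 0.228 with a minimum of 20 and 0.0904 with a minimum of 200.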

How the data were processed

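For each RNA and DNA library the authors deposited a table that gives every tag its UMI count and its read count. According to the methods, the first 8 bases of a read were taken as UMI, reads were trimmed with cutadapt 1.14 (version per the submitters' processing notes) and aligned with bowtie to the known tags, and different UMIs were counted per tag. Counts are whole numbers without normalization, and the alignment could not be varied here. A library's depth is the sum of its UMI counts, 560294 to 1366066 for RNA and 54038 to 621449 for DNA.

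Activity was computed from deposited counts in Python 3.11.15 (numpy 2.4.6, scipy 1.17.1, pandas 2.3.3). An observation needed 65 DNA UMIs and a construct 4 observations over all collections of a population, whereas the methods state these minimums for DNA read counts and for each week. The threshold of 0.1 was that of the methods. Constructs of 1 enhancer were compared first by the Kruskal-Wallis statistic (100000 permutations), then by an exact two-sided permutation test of mean ranks for each pair, with Benjamini-Hochberg adjustment over all enhancers of a population (241 and 273 pairs). A pair was called if both p-values were under 0.1. Populations were compared with edgeR 4.0.16 (R 4.3.3, limma 3.58.1) on counts summed per construct, with at least 10 UMIs in every library, TMM normalization, a term per collection and the interaction of RNA with population. DESeq2 1.42.0 was an alternative. RNA and DNA were taken from the same sorted cells, and the deviations of both libraries of a collection from the group means correlated by 0.251 to 0.612. Collections of the populations were not paired. Replicates of the same group differed by far more than sampling noise (chi-square per degree of freedom at least 19.0). Tests were tried on simulated data.

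The text names the 5 control constructs and all their tags and, of other constructs, those next above or below them in activity and the most active. The members, lists and tests were chosen with earlier results of these data known. Gene names were matched to RefSeq by symbol. Alternatives were the DNA minimum, reads in place of UMIs, a correction for shared UMIs, other units and tests, single weeks and leaving out collections or tags.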

Additional observations from a re-analysis of the deposited data

Results flagged for a closer look

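Dixon's test was applied to 23 groups of 4 to 6 collections, of which chance flags about 1 in 20, and 3 had a value far from the others. Act57B_Mef2_Mut tag 2 in mef2:CD2- cells reached 8.68 in replicate 6, against 0.460 to 2.11 in the other 5 collections. BTub60D_WT tag 4 reached 0.797 in the same collection, against 0.360 to 0.483 in the others. The log2 ratio of the triple mutant to the bap site mutant was -0.61 in replicate 4 of mef2:CD2- cells, against -3.72 to -2.58 in the others. Among observations left out for few DNA UMIs or missing counts, 25 had more than 3 RNA UMIs, and the highest activity among them was 352, on tag 1 of wildtype Act57B.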

How the results depend on the processing

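The lower activities of the Mef2 site mutant and of the triple mutant were called under the alternatives except with tag means as units and, in part, with collections as units. With tag means as units and adjustment over all pairs, the ratios in twi:CD2+ cells were 0.208 for the Mef2 site mutant, 0.0675 for the triple mutant over wildtype and 0.0704 over the bap site mutant, against 0.144, 0.0960 and 0.120 in mef2:CD2- cells. None of these passed (adjusted p = 0.438 in twi:CD2+ cells, against 0.440 in mef2:CD2- cells). For 4 against 4 tags the exact p cannot go below 0.0286, and for 3 collections not below 0.25, which is above the threshold of 0.1. With collections as units, the ratios in twi:CD2+ cells were 0.191, 0.0718 and 0.0463 for the same comparisons and 0.289 for the Mef2 site mutant in mef2:CD2- cells, again not called, whereas the triple mutant in mef2:CD2- cells was called over wildtype (0.0888) and over the bap site mutant (0.144, adjusted p = 0.0908 for both). For the bap site mutant in twi:CD2+ cells, the ratio turned to 0.959 with geometric means, with tag means as units and with the replicate block. All 3 take geometric means, and the ratio remained uncalled. In mef2:CD2- cells it was called with adjustment within BTub60D (0.719), with the replicate block (0.631), without replicate 1 (0.580) and without tag 3 of the mutant (0.670). The replicate block changed no other call in the 8 comparisons of constructs, nor did fitting the 5 population differences with no replicate block. Ratios with the block are of geometric means. The value of 0.0534 for the triple mutant in twi:CD2+ cells thus differs from the main 0.103 in the kind of mean as well as in the block. Leaving out 1 collection gave 0.142 to 0.255, 1.25 to 1.64, 0.0813 to 0.133 and 0.0551 to 0.0813 for the 4 comparisons in twi:CD2+ cells and 0.232 to 0.360, 0.580 to 0.791, 0.0825 to 0.102 and 0.111 to 0.142 in mef2:CD2- cells. Leaving out 1 tag gave 0.640 to 0.943 for the bap site mutant in mef2:CD2- cells.

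The sign of the Mef2 site mutant's log2 difference between populations turned with tags of at least 65 DNA UMIs in every collection (0.0051) and against week 2 only (0.32), wildtype Act57B turned against week 1 only (-0.044), and the triple mutant turned with the same choice of tags (-0.058). Against 1 week, the bap site mutant (1.71) and wildtype BTub60D (-0.97) were called. Leaving out 1 collection gave -0.54 to 0.17 for the Mef2 site mutant (0.17 without replicate 3 of twi:CD2+ cells) and 0.60 to 1.34 for the bap site mutant. Over all constructs, 1 was called higher and 2 lower, but 2 and 4 by DESeq2, 6 and 2 with those tags, 1 and 5 with UMI counts corrected for shared UMIs, 1 and 4 against week 1 only and 5 and 5 against week 2 only. They were 2 and 3 without replicate 1 of twi:CD2+ cells, 3 and 4 without replicate 1 of mef2:CD2- cells and 2 and 5 without replicate 4 of mef2:CD2- cells. The triple mutant's effect over wildtype, twi:CD2+ minus mef2:CD2-, turned to 1.94 at 20 DNA UMIs and 0.30 at 200, its range without 1 collection was -0.78 to 0.19, and over the bap site mutant it turned to 0.69 at 20 DNA UMIs. Calls of lower mutants over all enhancers in twi:CD2+ cells were 12, but 19 with the t distribution, 5 without replicate 1 and 0 with tags or collections as units. In mef2:CD2- cells they were 27, but 13 in week 2 only and 0 with tags as units. Calls of higher mutants were 3 in twi:CD2+ cells, but 0 without replicate 1, 1 without replicate 2 and 0 with tags or collections as units. In mef2:CD2- cells they were 7, but 4 with collections as units, 2 in week 2 only and 0 with tags as units. The causes were not tested. Low DNA counts limit the precision of the rarer tags.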
